A study of Homo sapiens with 2 samples.

Results

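The genes of the ATF4 and unfolded protein response programmes were examined for chromatin occupied by DEK, an abundant nuclear protein that binds chromatin and histones. The set held 32 named genes of 19974 protein-coding genes on chromosomes 1 to 22 and X, chosen by name, with earlier results of these data known. Occupancy came from ChIP-seq of 786-O cells, an established line of human renal carcinoma, in 2 libraries of 1 group. The title of each library calls it a negative control, its description names Cas9, its genotype is given as WT and its antibody as DEK. The labels leave unclear what the libraries are a negative control for, and the peaks are called DEK peaks here because of the antibody label. No edited, input or other-antibody library was analysed here, and the labels do not say that the libraries came from separate cultures, so the spread between them may be technical. Replicate 1 had 19128 peaks and replicate 2 had 24580, with median fold enrichments of 3.99 and 3.89, and 67.8% and 52.2% of those used overlapped a peak of the other library.

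When unfolded proteins gather in the endoplasmic reticulum (ER), the membrane sensors encoded by EIF2AK3 (PERK), ERN1 (IRE1) and ATF6 signal to the nucleus. PERK and related kinases slow translation and favour synthesis of the transcription factor ATF4, which induces amino acid transporters, amino acid synthesis enzymes and feedback regulators. IRE1 splices XBP1 mRNA and ATF6 is cut to release a transcription factor, and both products induce chaperones and factors of ER-associated degradation. ATF4 with C/EBP partners binds the C/EBP-ATF response element, while ATF6 and XBP1 act at the ER stress response element (ERSE) and the unfolded protein response element.

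The 3 classes of member promoter below were picked by the letters of stress elements. They are shown by the 250 bases before a start, from RefSeq (GRCh38.p14), on the strand of the gene. EIF2AK3, SLC7A5, TRIB3 and HYOU1 also had a region at a listed start and are not shown. In the first class, CALR (chr19:12938359-12938608, plus strand), HSP90B1 (chr12:103930160-103930409, plus) and HSPA5 (chr9:125241344-125241593, minus), a DEK region lay over the ERSE. Capitals mark the ERSE letters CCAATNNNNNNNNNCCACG on either strand.
CALR: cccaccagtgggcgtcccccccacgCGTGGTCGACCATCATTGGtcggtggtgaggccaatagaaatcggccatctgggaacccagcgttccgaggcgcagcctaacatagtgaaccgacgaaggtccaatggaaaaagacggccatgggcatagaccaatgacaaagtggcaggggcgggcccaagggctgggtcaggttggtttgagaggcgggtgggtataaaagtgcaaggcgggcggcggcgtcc
HSP90B1: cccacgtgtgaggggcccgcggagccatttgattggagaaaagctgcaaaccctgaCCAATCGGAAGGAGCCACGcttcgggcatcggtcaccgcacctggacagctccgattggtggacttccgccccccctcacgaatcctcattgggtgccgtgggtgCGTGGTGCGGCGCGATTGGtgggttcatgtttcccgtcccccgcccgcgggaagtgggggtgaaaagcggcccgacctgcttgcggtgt
HSPA5: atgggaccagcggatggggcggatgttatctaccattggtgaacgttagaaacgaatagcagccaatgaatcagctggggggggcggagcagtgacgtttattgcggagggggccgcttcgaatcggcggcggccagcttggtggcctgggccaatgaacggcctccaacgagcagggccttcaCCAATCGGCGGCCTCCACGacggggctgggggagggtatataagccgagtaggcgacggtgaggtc
In the second class, CANX (chr5:179698679-179698928, plus), PDIA6 (chr2:10812786-10813035, minus) and XBP1 (chr22:28800570-28800819, minus), the same letters occurred without a region shared by both libraries over them.
CANX: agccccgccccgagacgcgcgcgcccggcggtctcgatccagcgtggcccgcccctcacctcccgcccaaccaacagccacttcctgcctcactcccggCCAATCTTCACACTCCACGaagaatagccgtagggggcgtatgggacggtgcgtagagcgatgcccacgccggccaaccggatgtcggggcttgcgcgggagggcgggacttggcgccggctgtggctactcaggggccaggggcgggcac
PDIA6: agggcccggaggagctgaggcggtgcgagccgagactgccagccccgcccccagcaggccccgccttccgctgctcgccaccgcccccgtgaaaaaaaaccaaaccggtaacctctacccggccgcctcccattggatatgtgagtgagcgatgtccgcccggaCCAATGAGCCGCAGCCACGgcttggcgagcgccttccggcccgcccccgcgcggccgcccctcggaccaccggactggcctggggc
XBP1: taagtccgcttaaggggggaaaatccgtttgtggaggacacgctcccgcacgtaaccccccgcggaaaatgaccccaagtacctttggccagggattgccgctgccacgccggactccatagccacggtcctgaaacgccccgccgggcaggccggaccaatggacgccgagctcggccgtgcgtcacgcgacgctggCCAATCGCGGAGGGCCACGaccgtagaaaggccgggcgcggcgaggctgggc
The third class holds promoters with the core of the C/EBP-ATF response element, TGATGNAA on either strand, here in capitals. HERPUD1 (chr16:56931892-56932141, plus) had a DEK region downstream of its start, and CHAC1 (chr15:40953221-40953470, plus) had none.
HERPUD1: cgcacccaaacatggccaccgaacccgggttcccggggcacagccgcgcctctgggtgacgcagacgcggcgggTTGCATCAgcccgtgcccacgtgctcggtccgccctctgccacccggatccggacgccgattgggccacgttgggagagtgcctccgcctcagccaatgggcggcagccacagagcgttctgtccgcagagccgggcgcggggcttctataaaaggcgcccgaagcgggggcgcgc
CHAC1: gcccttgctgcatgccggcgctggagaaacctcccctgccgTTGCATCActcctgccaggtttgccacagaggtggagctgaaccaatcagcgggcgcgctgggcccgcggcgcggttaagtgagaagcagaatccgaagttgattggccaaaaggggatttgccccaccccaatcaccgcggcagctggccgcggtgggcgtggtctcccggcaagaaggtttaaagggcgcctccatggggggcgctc

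The first comparison asked how many members held DEK peaks of both libraries. Peaks of the 2 libraries that overlapped by at least 1 bp formed shared regions, and a gene was counted where such a region overlapped its annotated span plus 1 kb on each side. This held for 16 of 32 members (50%, 95% Wilson interval 33.6 to 66.4), against 24.4% of the 19942 other protein-coding genes. The 16 were SLC7A5, SLC7A11, SLC3A2, ASNS, TRIB3, VLDLR, ATF3, ATF6, ERN1, EIF2AK3, HSPA5, HSP90B1, CALR, CANX, HYOU1 and HERPUD1. Of the others, PSAT1, ATF5, PDIA6, DNAJC3 and SESN2 had peaks of replicate 2 only and SEL1L of replicate 1 only. PHGDH, SHMT2, CHAC1, DDIT3, ATF4, XBP1, PDIA4, DNAJB9, CEBPB and CEBPG had no peak in either library. Where no peak is listed, DEK may still be bound below the threshold of the authors' peak calls.

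Long genes offer more room for a region, so the count was also read by gene length. Among genes under 10 kb, 2 of 11 members (HSPA5 and CALR) were occupied, against 10.4% of other genes. From 10 to 30 kb the count was 4 of 6 (HERPUD1, HSP90B1, HYOU1 and TRIB3), against 19.7%. From 30 to 100 kb it was 9 of 13, against 30.2%, and from 100 kb upwards 1 of 2 (ATF6), against 46.0%. At the shares of other genes of the same length classes, 7.17 of the 32 members would have been occupied. Members were not longer than other genes, with a median of 24.2 kb in both sets, while occupied members had a median of 38.9 kb and the rest 7.49 kb.

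**Figure D1:**
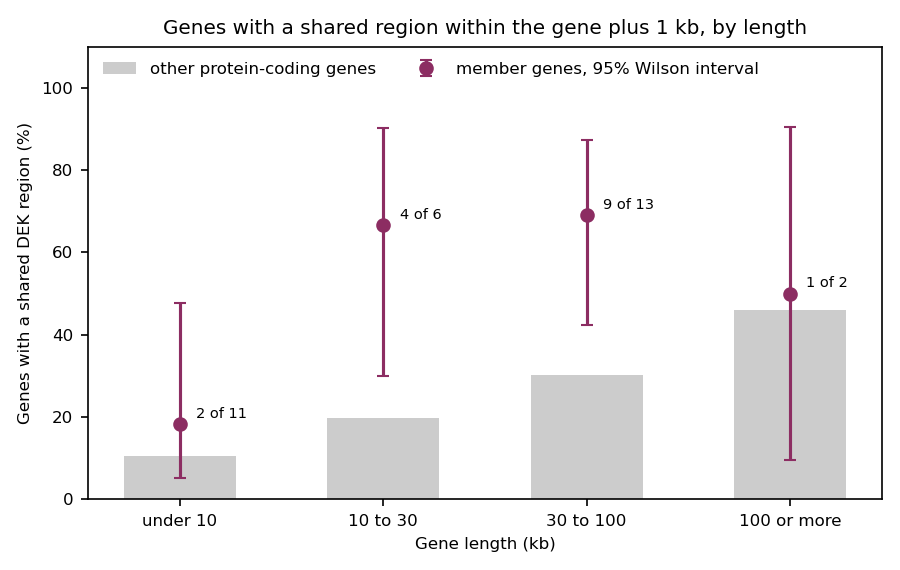
Percent of genes with a shared DEK region in the gene span plus 1 kb, by gene length in kb; grey bars are other protein-coding genes, points are members with 95% Wilson intervals and counts. The member points lay above the bar in every class. The intervals lay above it from 10 to 30 kb (4 of 6) and from 30 to 100 kb (9 of 13), and those of the shortest and longest classes included it. Members were chosen by name, so the intervals describe counting error only and are no test.

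The count depended on the strength asked of a peak. With −log10 q of at least 5 in both libraries it was 5 of 32 (SLC7A5, SLC3A2, HSPA5, CALR and EIF2AK3), against 11.1% of other genes. With a fold enrichment of at least 5 it was 0 of 32, against 2.55%. At the q threshold HSPA5 counted only through a region beyond its end, with −log10 q of 5.65 and 6.03. The region at the start of HSPA5 had 3.98 in replicate 1. SLC3A2 counted because the joined region reached into its window; its replicate 1 peak began 1116 bp beyond the gene, and with a peak of each library asked within the window 15 members remained.

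The second comparison asked how many members had a region at the point where transcription begins. A shared region lay within 1 kb of a start of 9 members (28.1%, 95% Wilson interval 15.6 to 45.4), against 6.45% of other genes. The promoter table has no entry for SLC7A11 and SHMT2, and for these, as for other genes with no listed start, both annotated ends were used. The 9 were HSPA5, HSP90B1, CALR, HYOU1, HERPUD1, EIF2AK3, SLC7A5, TRIB3 and, at an annotated end, SLC7A11. At HYOU1 and SLC7A5 the replicate 2 peak itself lay 1107 bp and 1019 bp from the start, so the peak of each library was within 1 kb at 7 members. At the shares of other genes of the same length classes 2.07 members would have been counted at a start. A region in the gene window and none at a start was found in 7 members (21.9%, 11.0 to 38.8), against 17.9% of other genes. This count takes out every gene with a region at a start, 9 of the members and 1286 of the other genes, and so lowers the share of members more. It leaves out SLC7A5, SLC7A11, TRIB3 and HSPA5, which had regions both at and away from a start or annotated end. The share of all genes with a region away from a start was not computed, so these counts do not place the difference at starts alone. At starts the difference between members and other genes was 21.7 percentage points. With −log10 q of at least 5, 3 members (SLC7A5, CALR and EIF2AK3) were left at starts, against 2.36%, and with a fold enrichment of at least 5 none was left, against 0.552%.

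The regions at starts stood at 2 distances. With positions before a start written as negative, summits lay just upstream of the listed start at HSP90B1 (-181 bp), HSPA5 (-189 bp), CALR (-209 bp) and EIF2AK3 (-334 bp). They lay farther off at HERPUD1 (891 bp), TRIB3 (922 bp), HYOU1 (1046 bp) and SLC7A5 (-1133 bp). The annotated span of EIF2AK3 reaches beyond its listed start, and its summit lay inside that span. With the window narrowed to 500 bp, 5 members were left (15.6%, 6.86 to 31.8), the 4 genes of the first set and SLC7A11, against 4.91% of other genes. Base composition of the promoters, 300 bases from 250 before the start, differed between these sets. The GC content was 57.7% to 66.0% in the 4 promoters with a region within 500 bp and 70.3% to 80.3% in the 6 listed promoters of the other 4 genes, without overlap. Among other genes with a region at a start, the median GC content was 59.3% with a region within 500 bp (948 promoters) and 66.7% with one beyond (321 promoters), with quartiles of 54.7 to 63.7 and 60.7 to 72.0. These are descriptions, and the part of base composition in the positions was not tested.

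**Figure D2:**
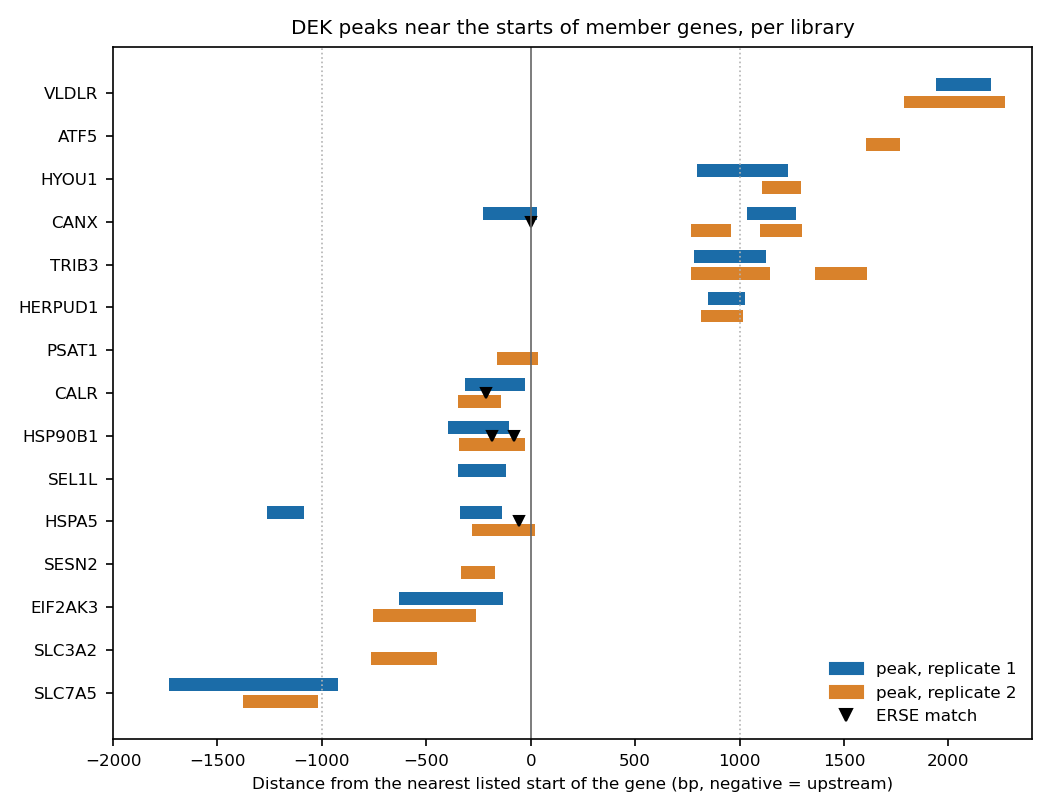
Peaks of replicate 1 (blue) and replicate 2 (orange) around the nearest listed start of each member with a peak in view, in bp, with the 1 kb window dotted and ERSE matches as triangles. HSPA5, HSP90B1, CALR and EIF2AK3 carry peaks of both libraries just upstream of the listed start, whereas those of HERPUD1, TRIB3, HYOU1 and SLC7A5 sit near the edge of the window.

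The ERSE letters occurred in promoters of 6 of 30 members with a listed promoter, and in 0.104% of all 22132 promoters of protein-coding genes. The first share counts genes with a match in any listed promoter, and the second counts single promoters, those of the members included. Members were chosen as genes of the response that acts at the ERSE, so this contrast is no independent result. At CALR the match ran from -225 to -207, inside the peaks of both libraries. HSP90B1 held 2 matches, of which that from -194 to -176 was inside both peaks and that from -89 to -71 inside the replicate 2 peak only. At HSPA5 the match from -66 to -48 was inside the replicate 2 peak, while the replicate 1 peak ended upstream of it. At CANX the match, from -151 to -133 of the start shown and across another listed start, lay inside a peak of replicate 1 alone, and at PDIA6 and XBP1 no peak covered it. Among the 15 other genes with these letters, some of which share a match with a neighbour, 1 (TRIM5) had a shared region over them. The rest had no peak of either library over the letters, among them CRELD2 and ERO1B of the ER arm counted below. A shared region overlapped the promoter window of 4 of the 30 members with a listed promoter (CALR, HSP90B1, HSPA5 and EIF2AK3), each with 1 listed promoter. For other genes the share was counted by promoter, at 3.62% of 22084. Members held 10 promoters with a region at a start and 38 without, and no share by gene was computed for other genes.

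The core TGATGNAA was found in promoters of 6 members (ASNS, ATF3, CEBPG, CHAC1, HERPUD1 and SLC3A2) and in 2.70% of all promoters. HERPUD1 alone of these had a region at its start, 986 bp from the match. The unfolded protein response element core, TGACGTGG on either strand, was found in HYOU1 and in 0.764% of all promoters, 976 bp from the region of HYOU1. EIF2AK3, SLC7A5 and TRIB3 had a region at a listed start but none of the ERSE, TGATGNAA or TGACGTGG letters in a listed promoter. Here too members were counted as genes and the shares of all promoters as single promoters, those of the members included. The matches are letters in a window and were not tested for binding.

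Among the ER chaperones and folding enzymes, 5 of 9 were occupied, 4 of them at the start, beside 24.4% and 6.45% of other genes. Values of fold enrichment below are the authors' own, for 1 library each. The pileup, the number of overlapping fragments at a summit, was solved from the deposited fold and p. Fold enrichment is relative to an expected pileup, and the labels do not say whether that came from the same library or a control. HSPA5, which encodes the chaperone BiP, had a region over its start (chr9:125241324-125241681) with a fold enrichment of 3.33 in replicate 1 and 4.73 in replicate 2 (4.03 ± 0.989, SD, n = 2) on pileups of 23 and 34. The libraries differed there in −log10 q, at 3.98 and 10.3. A peak of replicate 1 alone, with 3.11, lay from -1264 to -1087 bp, outside the window. A further region beyond the end of HSPA5 (chr9:125233680-125234051), also within 1 kb of RABEPK, had 3.88 and 3.91.

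HSP90B1, the ER member of the HSP90 family, had a region at its start (chr12:103930012-103930381) of 3.65 and 3.99 (3.82 ± 0.237) on pileups of 15 and 18. CALR, which encodes the lectin chaperone calreticulin, had one (chr19:12938259-12938580) of 4.31 and 4.22 (4.26 ± 0.0601) on pileups of 23 and 22. Of the 3 ERSE promoters with a region, CALR had the closest values between libraries and HSPA5 the widest apart. HYOU1, a large ER chaperone of the HSP110 family, had a region downstream of its start (chr11:119055913-119056410) of 4.17 and 4.49 (4.33 ± 0.226) on only 12 and 13 fragments, the lowest pileups of all member regions.

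CANX, which encodes the membrane-bound lectin chaperone calnexin, had no shared region within 1 kb of a start. Single-library peaks lay there instead, of 3.39 in replicate 1 at -138 bp and of 3.40 in replicate 2 at 807 bp. A shared region began 1035 bp from a start, just outside the window (chr5:179700002-179700264; 3.51 and 2.86, 3.19 ± 0.456), and another lay in the upstream part of the annotated gene, also at a start of CBY3 (chr5:179680584-179681439; 3.66 and 3.94). The co-chaperone gene DNAJC3 had a peak in replicate 2 alone, inside the gene at 37525 bp from its start (fold 5.27), and the disulfide isomerase gene PDIA6 had one of 3.15. PDIA4 and DNAJB9, which encode a disulfide isomerase and a BiP co-chaperone, had no peak, and their nearest shared regions were 60.8 kb and 43.6 kb away.

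The 3 ER stress sensor genes were all occupied, 1 of them at its start, beside 6.45% of other genes with a region at a start. They are long, EIF2AK3 (71.4 kb) and ERN1 (91.0 kb) in the class where 30.2% of other genes were occupied and ATF6 in that with 46.0%. With −log10 q of at least 5 in both libraries, ATF6 and ERN1 were no longer counted and EIF2AK3 was. EIF2AK3 had the highest mean fold of the regions at starts, though not the highest in replicate 2 (chr2:88627596-88628220), at 5.16 in replicate 1 and 4.31 in replicate 2 (4.73 ± 0.600) on pileups of 26 and 21. A peak of replicate 2 alone lay 27169 bp inside it, with 4.24. ATF6, the longest member at 198 kb, had a region 26602 bp downstream of its start (chr1:161792768-161793074) of 4.57 and 4.32 (4.45 ± 0.170). Near the far end of ATF6 each library had a peak, 377 bp apart and so not joined. ERN1 had a region 55129 bp downstream of its start (chr17:64074725-64075149) of 3.67 and 3.45 (3.56 ± 0.156) on pileups of 13 and 15.

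In ER-associated degradation, HERPUD1, a scaffold of the degradation complex, had a narrow region of 209 bp (chr16:56932959-56933167) with 3.70 and 3.38 (3.54 ± 0.231), the lowest mean fold of the regions at starts and the lowest in replicate 2, though not in replicate 1. SEL1L, the adaptor of the HRD1 ubiquitin ligase, had a single peak of replicate 1 at -189 bp, with a fold of 5.75, higher than in 94.2% of that library's peaks. Replicate 2 had no peak in the SEL1L window.

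All 3 amino acid transporter genes were occupied, in the length class from 30 to 100 kb where 30.2% of other genes were. SLC3A2 among them counted in 6 of 12 alternatives. SLC7A11, the cystine-glutamate exchanger, had a region over its end of higher coordinate (chr4:138242275-138242616) of 3.93 and 4.68 (4.30 ± 0.534) and one inside the gene (chr4:138235529-138235880) of 4.24 and 4.87 (4.55 ± 0.447). At both of its regions replicate 2 was higher. SLC3A2, the heavy chain that pairs with SLC7A5 and SLC7A11, had a region past its end (chr11:62889345-62890401) of 4.13 and 4.23 (4.18 ± 0.0717), and a peak of replicate 2 alone at -617 bp of a start, with 3.49.

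SLC7A5, the leucine transporter LAT1, had the most shared regions of the members, 3, with 3 further peaks of replicate 2 alone. The region upstream of its start (chr16:87870433-87871238) had 4.04 and 4.60 (4.32 ± 0.397) on pileups of 22 and 26. The 2 inside the gene had the lowest mean folds of all member regions, 2.75 and 2.47, from values of 2.63 and 2.88 (chr16:87860606-87860895) and 2.49 and 2.46 (chr16:87862327-87862753). Their pileups were nevertheless high, 32 and 40 fragments at the first and 26 and 30 at the second, where the median shared region had 21 and 22. The expected pileup was 11.6 and 13.3 at the first, above that of 97.2% and 97.6% of shared regions. At the region upstream of the start it was 4.70 and 4.87. Low fold at the intragenic regions of SLC7A5 thus went with a high expected pileup in both libraries. The expected pileup was solved from the fold and the summit pileup, so this relation holds by definition and is no separate observation. The source of the high expected pileup was not tested.

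**Figure D3:**
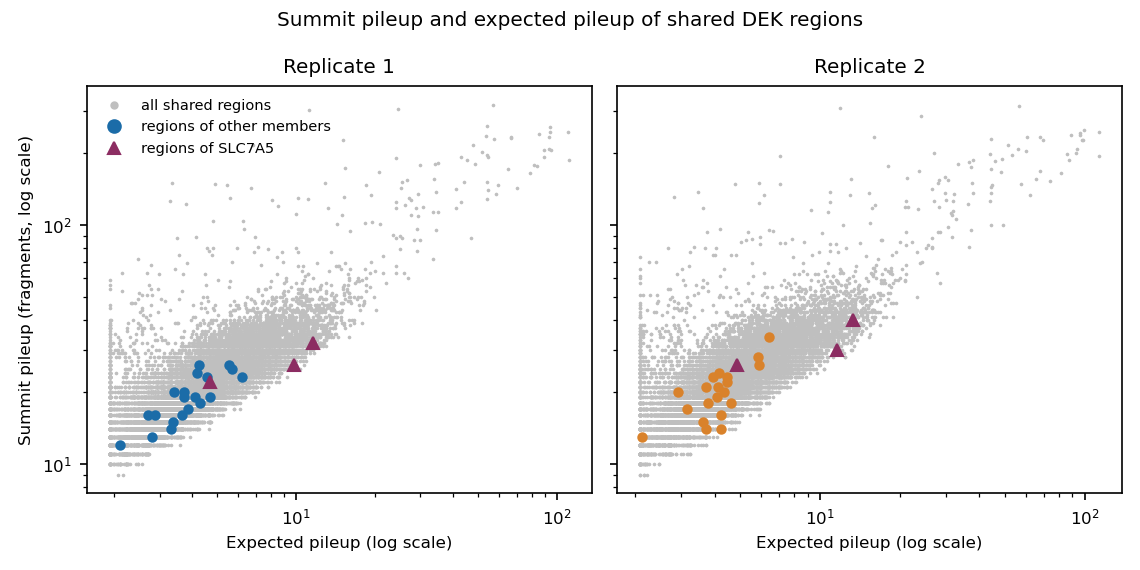
Summit pileup against expected pileup, in fragments on log axes, for all shared regions (grey), the regions of SLC7A5 (triangles) and those of other members (coloured points), per library. The 2 intragenic regions of SLC7A5 lie to the right, at expected pileups of 9.86 to 13.3, and all other member regions lie at 6.41 or below.

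Among the amino acid and folate-pathway enzymes, 1 of 4 was occupied and none at its start, a share near the 24.4% of other genes. ASNS, asparagine synthetase, had a region inside its annotated span (chr7:97911756-97912475), at -39532 bp of the nearest listed start, with 4.38 and 5.36 (4.87 ± 0.695), the highest mean percentile of the member regions at 79.8. PSAT1, an enzyme of serine synthesis, had a peak of replicate 2 alone directly at its start (-31 bp) with 4.43. PHGDH, which begins serine synthesis, and SHMT2, the mitochondrial serine hydroxymethyltransferase, had none; their nearest shared regions were 36.8 kb and 13.8 kb away.

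Among the stress transcription factor genes 1 of 7 was occupied, and none at a start, beside 24.4% and 6.45% of other genes. ATF4 itself had no peak, and its nearest shared region was 70.1 kb away. The same held for DDIT3 (CHOP), CEBPB, CEBPG and XBP1, whose nearest regions were 127 kb, 24.3 kb, 99.2 kb and 20.6 kb away. ATF5 had a peak of replicate 2 alone, with 3.81. ATF3 had a region between its 2 listed starts (chr1:212596127-212596599), with 4.84 in replicate 1 and 3.25 in replicate 2 (4.04 ± 1.13), the largest spread of any member region. Apart from ATF3, of 55.4 kb, these genes are short, from 2.11 kb to 8.98 kb, a class in which other genes were seldom occupied as well.

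Of the feedback regulators and other stress targets 2 of 4 were occupied, beside 24.4% of other genes. TRIB3, a pseudokinase that restrains ATF4 activity, had a region downstream of its start (chr20:382109-382487) of 3.59 and 4.40 (4.0 ± 0.574) and one farther inside (chr20:391034-391345) of 4.45 and 3.94 (4.19 ± 0.359). The order of the libraries differed between these regions of TRIB3. VLDLR, a lipoprotein receptor, showed the same reversal, with 3.48 and 4.85 at 1977 bp from its start (chr9:2623574-2624055) and 4.77 and 3.19 at 33834 bp (chr9:2655476-2655878). SESN2, a regulator of amino acid sensing, had only a peak of replicate 2, at -274 bp, with 3.04. CHAC1, which degrades glutathione, had no peak, and its nearest shared region was 159 kb away.

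Taking all 23 member regions, fold enrichment ran from 2.49 to 5.16 in replicate 1 and from 2.46 to 5.36 in replicate 2, and none reached 5-fold in both libraries. Replicate 1 was higher at 10 and replicate 2 at 13. The median absolute log2 ratio between libraries was 0.18, beside 0.17 over all 12590 shared regions. The mean percentile of fold enrichment over both lists had a median of 50.5 in member regions and 56.6 in all shared regions, and 10 of 23 lay above the latter. The median was 63.7 for the 9 regions at a start or annotated end and 49.0 for the other 14. Mean percentiles of single member regions ran from 0.768 to 79.8, and their median was below that of all shared regions.

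**Figure D4:**
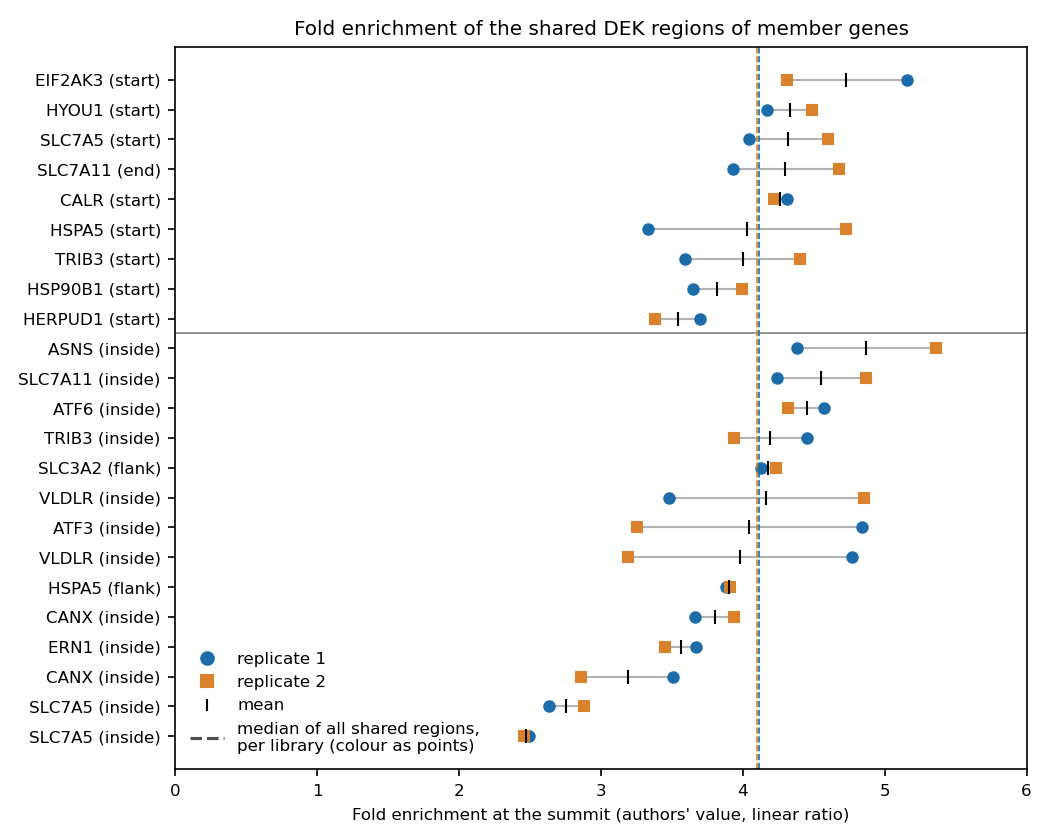
Fold enrichment at the summit (authors' linear ratio) of each member region in replicate 1 (circles) and replicate 2 (squares), with the mean as a tick and the medians of all shared regions dashed; regions at starts or annotated ends are above the line. By the mean, EIF2AK3 is highest among regions at starts (4.73) and ASNS among the rest (4.87), and the 2 intragenic regions of SLC7A5 are lowest.

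Other genes of both programmes, from a list of 78 that excludes the members, were counted in the same way. A shared region was present in 31 of 78 (39.7%), and at a start or annotated end in 14 (17.9%), beside the 24.4% and 6.45% of other genes given above. In the ATF4 arm (transporters, tRNA synthetases, amino acid enzymes) 18 of 42 were occupied and 7 at a start or annotated end. In the ER arm (degradation, folding, sensors) the counts were 13 of 36 and 7. LARS1, PSPH, VEGFA and ERN2 among these have no listed start and were counted at an annotated end. The highest at a start was OS9, an ER lectin of the degradation pathway, with 6.11 and 4.71 (5.41 ± 0.987). ATF6B, the paralogue of ATF6, followed with 5.04 and 4.82 (4.93 ± 0.151), then LARS1, the leucyl-tRNA synthetase, at an annotated end with 5.14 and 4.55 (4.85 ± 0.423), and SYVN1, the ubiquitin ligase HRD1, with 4.06 and 4.42 (4.24 ± 0.249). SLC1A5, a glutamine transporter, had 5.26 and 2.91 (4.08 ± 1.66), so the libraries disagreed there, and SEC61B, a subunit of the ER translocon, had 3.84 and 3.96 (3.90 ± 0.0862). These genes were counted with results of the member list known, and their shares are no independent support for it.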

How the data were processed

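DEK ChIP-seq peaks of 2 libraries of 786-O cells were analysed, both of 1 group. The submitters' processing notes name GRCh38 (hg38), Bowtie2 2.2.5, ChIPseeker 1.32.1, cutadapt 1.18, deepTools 3.5.1, DiffBind 3.6.5 and MACS2 2.2.7.1, without roles. Peaks were called per library, since the deposited peak names carry 1 library each. Whether a control library entered the calls is unknown from the labels. The authors deposited, per peak, a fold enrichment (a linear ratio at the summit), −log10 p, −log10 q, a summit offset and a score. The deposited score equalled 10 times −log10 q, truncated, in 100% and 99.95% of the peaks.

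Peaks on chromosomes 1 to 22 and X that overlapped by at least 1 bp between libraries were joined into shared regions. Each region was described by the strongest peak per library, with its summit midway between theirs. Gene spans came from a RefSeq table and starts, strands and promoter sequences from a RefSeq promoter table, both GRCh38.p14. Gene names matched for 32 of 32 members and starts for 30. Both annotated ends stood in for a start where none is listed. Pileups were solved from the deposited fold enrichment and Poisson p (met within a relative tolerance of 5e-05 in 100% of shared regions). Read depth is unknown from these files, and intervals cover counting error only. No gene-set test was run. The members and lists were chosen with earlier results of these data known. Named genes were all members, neighbours sharing a region, and the 6 other pathway genes highest by mean percentile with a region at a start or annotated end. Other pathway genes counted at an annotated end were named too. The interval joins and the pileup solution were tested on simulated data. Python 3.11.15, pandas 2.3.3, scipy 1.17.1 and matplotlib 3.10.9 were used. Alternatives were a stricter peak threshold, stricter matching of libraries, other windows, the nearest gene only and single libraries.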

Additional observations from a re-analysis of the deposited data

How the results depend on the processing

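The counts of occupied members (16 in the gene window, 9 at a start) fell under stricter peak thresholds. With −log10 q of at least 5 they were 5 and 3, and the differences from other genes were 4.51 and 7.01 percentage points in place of 25.6 and 21.7. With a fold enrichment of at least 5 both counts were 0, and the differences turned to -2.55 and -0.552 points. The count at starts was 5 with a window of 500 bp, against 4.91% of other genes, and 14 with a peak of either library. Both settings were chosen after seeing the data. Asking for a peak of either library counts more of the other genes too, 43.4% in place of 24.4% in the gene window. The 14 can therefore not be set beside the 6.45% of other genes with a shared region at a start. Under the other alternatives (10 of 12 for the gene window and 7 of 11 for starts) the counts stayed within 1.5 times the reported ones. Without replicate 1 or replicate 2, the gene window held 21 and 16 members (differences of 27.8 and 17.4 points) and starts 11 and 11 (22.2 and 24.7 points). At starts HYOU1 was present under 5 of 11 alternatives, SLC7A5 under 6 and CALR and EIF2AK3 under 10 each. No paired analysis was possible because there is 1 group. Fold enrichment rests on pileups of 12 to 40 fragments.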
